A study of Mus musculus with 78 samples.

Results

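The transcripts described here are those of the mouse mitochondrial genome, taken as every row of the deposited mRNA count table whose name begins with mt-. This rule gave 37 of 52459 named genes: 13 mRNAs of proteins, 2 rRNAs and 22 tRNAs. The libraries came from cartilage that was engineered in culture from mouse induced pluripotent stem cells, and no allele or transgene is named in the labels. Untreated controls were taken at 0, 4, 12, 24 and 72 h. Treated cartilage was taken at 4, 12, 24 and 72 h, after IL-1beta (interleukin-1 beta) at 1 ng/mL or TNF-alpha (tumor necrosis factor alpha) at 20 ng/mL. Both are cytokines that drive inflammation in joints. Each of the 13 groups had 3 mRNA libraries (replicates a, b and c), made from total RNA after rRNA depletion with a Ribo-Zero Gold kit. The column of replicate b of control 0 h was left out, so control 0 h had 2 libraries and 38 were analysed. The labels do not say whether replicates were separate cultures, so the p-values may measure only technical spread.

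Mitochondrial DNA is copied into long RNAs from both of its strands by the polymerase POLRMT with the factors TFAM and TFB2M. The RNAs are cut mostly at the tRNAs, by RNase P and the nuclease ELAC2, so that the genes of a strand start in common precursors and their levels then part by processing and decay. The heavy-strand RNA carries both rRNAs, most tRNAs and all mRNAs except mt-Nd6, which comes from the light strand. The proteins are core subunits of respiratory complexes I, III and IV and of ATP synthase, and the nuclear genome encodes all their partners. Chondrocytes are known to make much of their ATP by glycolysis, and inflammatory cytokines are known to lower their mitochondrial respiration. In an rRNA-depleted library the mitochondrial rRNAs are what the kit left, since Ribo-Zero Gold also removes them.

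The 38 libraries held 11163263 to 68655350 counts, of which 40445 to 243192 per library lay on mitochondrial genes. Of the 8 chondrocyte markers listed, all had a mean of at least 1 CPM (counts scaled in the usual way to library size, here corrected by TMM factors). Col2a1, the main cartilage collagen, led them at a mean of 56530 CPM. Markers of other cells were present as well. All 7 fibroblast markers (median sum 25733 CPM, led by Col1a2), all 5 adipocyte markers (367 CPM, mostly Fabp4), all 6 neural markers (91.0 CPM, mostly Map2) and 3 of 7 macrophage and leukocyte markers (27.0 CPM, mostly Cd68) reached a mean of 1 CPM. No endothelial or pluripotency marker did, nor any of the 7 muscle markers except Tnnt2 (2.32 CPM). The left-out column correlated with no other library above 0.189, against 0.990 between the other 0 h libraries, and listed mt-Co1 at 0. A set of 8 libraries stood apart in Rmrp, the RNA of RNase MRP: the controls of 0 h and 4 h with the IL-1beta libraries of 4 h held 17.7 to 46.1 CPM, and the other 30 held 105 to 529. This parting runs between the 4 h controls and the 4 h TNF-alpha libraries, and between the controls of 4 h and 12 h.

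A large stretch of the mitochondrial genome held almost no counts. The 11 genes in a row from mt-Ts1 to mt-Nd4l (MT:6870-10173, mm10 as in RefSeq GRCm38.p6, 3304 bases) summed to 4 counts over 38 libraries, 3 on mt-Tr and 1 on mt-Co3. They include 6 mRNAs: mt-Co2 and mt-Co3 of complex IV, mt-Atp6 and mt-Atp8 of ATP synthase, and mt-Nd3 and mt-Nd4l of complex I. The tRNA genes mt-Tw, mt-Ty and mt-Th were also at 0. In all, 12 members had 0 counts in every library, which allows up to 0.00356 CPM over the summed libraries (3 counts, counting error only), and 14 had 3 or fewer. The neighbours at both ends were well covered. To the left mt-Co1, which overlaps the first gene of the stretch (MT:5328-6872), was the most counted member, and to the right mt-Nd4 (MT:10167-11544) had a mean of 64.6 CPM.

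These zeros do not show that the transcripts are absent. RefSeq places a pseudogene on mouse chromosome 1, Gm10925, that carries mt-Atp6 among its synonyms (chr1:24613971-24614651). Gm10222, of the length RefSeq gives mt-Nd4l (chr1:24612404-24612700), lies beside it. The first coordinates of the pair are 1567 bases apart and the last ones 1951, against 1950 and 1566 for mt-Atp6 and mt-Nd4l. In the count table Gm10925 had 5 counts over 38 libraries and Gm10222 had 1. Another unplaced gene, Gm28438, is within 3 bases of mt-Nd3 in length and had 2051 counts, with 19 to 114 in every library. How the authors treated reads that match several places is not given in the sources used here, and whether such reads account for the empty stretch was not tested. The left-out column, with 220180 counts in all, had counts on 13 of these 14 nearly empty members. Its values cannot be tied to the genes of their rows, as it correlated with no other library above 0.189. Its counts therefore do not show that these members can be detected.

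**Figure D1:**
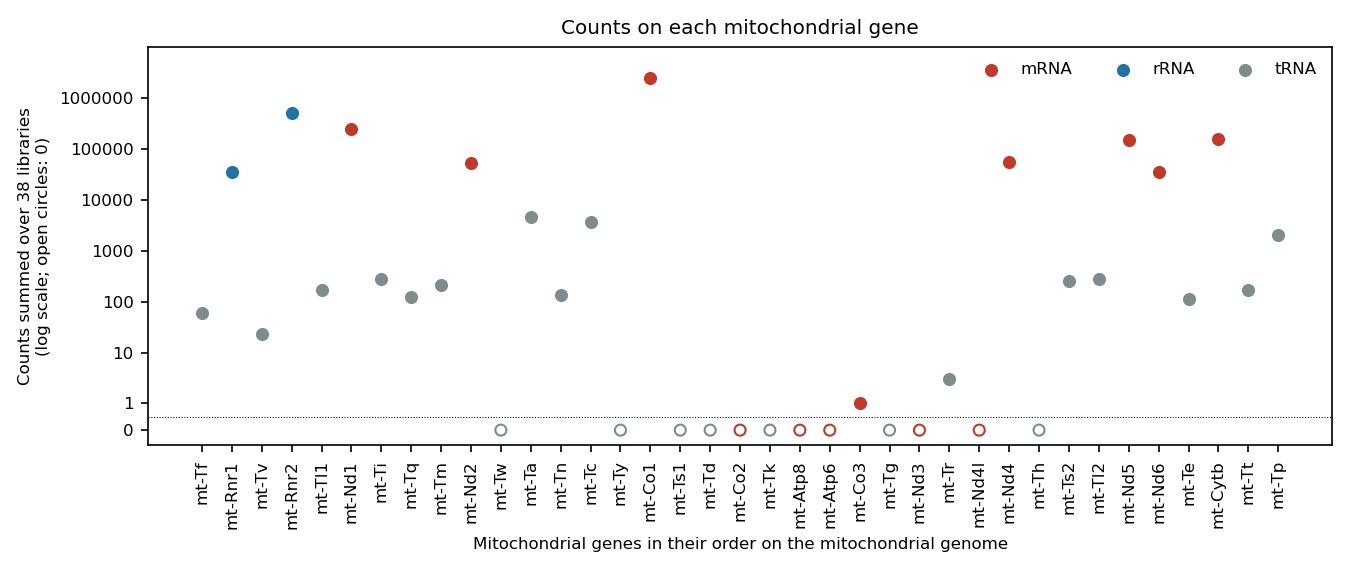
Counts on each of the 37 mitochondrial genes, summed over 38 libraries (log scale; open circles are genes at 0), against their order on the mitochondrial genome. The run from mt-Ts1 to mt-Nd4l holds 4 counts, between mt-Co1 and mt-Nd4, which are well covered.

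The default low-count filter kept 17 members: 7 mRNAs (mt-Co1, mt-Cytb, mt-Nd1, mt-Nd2, mt-Nd4, mt-Nd5 and mt-Nd6), both rRNAs and 8 tRNA genes. Of the 20 others, 14 are the nearly empty ones above. The other 6 are tRNA genes with 23 to 169 counts over all libraries. tRNA genes are 59 to 75 bases long, and reads on them can come from uncut precursors. The most counted, mt-Ta, mt-Tc and mt-Tp, all read from the light strand. The strand setting of the counting is not given, so reads of a light-strand gene and of the heavy-strand RNA across it cannot be told apart; this touches mt-Nd6 and these 3 tRNA genes.

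Among the measured members mt-Co1, the catalytic subunit of complex IV, stood far above the rest. It held 66.2% of all mitochondrial counts, mt-Rnr2 (the 16S rRNA of the large mitoribosomal subunit) 13.5% and mt-Nd1 6.77%. Per length, mt-Co1 had a mean level of 1815 CPM per kb, 6.04 times that of mt-Nd1 and 38.7 times that of mt-Nd4. These mRNAs arise from a common precursor. The levels were divided by full gene lengths, although mt-Co1 and mt-Nd4 overlap the ends of the nearly empty stretch. Whether reads on mt-Nd4 or other members went uncounted, which would change these ratios and the order below, was not tested. The order per length was mt-Co1, mt-Rnr2, mt-Nd1, mt-Cytb, mt-Nd5, mt-Nd6, mt-Nd2, mt-Nd4 and mt-Rnr1 (the 12S rRNA). For the pairs of mt-Rnr2 with mt-Nd1 and of mt-Rnr1 with mt-Nd4 the order turned with the group. mt-Nd1 was above mt-Rnr2 in all 9 libraries of 4 h, at 253 to 313 CPM per kb against 212 to 241 in the controls. mt-Rnr2 was above mt-Nd1 in every control library of the other times, at 623 to 858 against 149 to 215 CPM per kb at 0 h, and it was above in 23 of the 38 libraries in all. mt-Rnr1 was above mt-Nd4 in both libraries of 0 h and below it in all 9 of 4 h, and in the other 9 groups the order differed between libraries. Every other neighbouring pair kept its order in 36 or more of the 38. The light-strand mt-Nd6 (81.0 CPM per kb) was above mt-Nd2 (60.0) in 37 libraries.

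The share of all counts on mitochondrial genes was 0.203% to 0.618% over the 38 libraries. At 4 h the groups overlapped. Controls held 0.399%, 0.362% and 0.324%, IL-1beta libraries 0.203%, 0.354% and 0.376%, and TNF-alpha libraries 0.391%, 0.378% and 0.297%. The IL-1beta library at 0.203%, replicate a, was the lowest of all 38. At 24 h IL-1beta libraries held 0.618%, 0.551% and 0.609%, against 0.358%, 0.355% and 0.384% in their controls. The highest library of all 38 was among these, at 0.618%, and TNF-alpha at 72 h had a like mean share (0.593% in both groups). From 12 h on, every library of either cytokine lay above every control of its time. With IL-1beta the ratio of group means was 0.861 at 4 h, 1.35 at 12 h, 1.62 at 24 h and 1.39 at 72 h, and with TNF-alpha it was 0.983, 1.40, 1.52 and 1.41. As these are shares of RNA from bulk tissue, more mitochondrial RNA per cell and a changed mix of cells cannot be told apart.

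At 72 h the rRNA and mRNA parts of the share can be set apart. IL-1beta libraries held mean rRNA shares of 0.111% ± 0.0165 (SD, n = 3) against 0.0781% ± 0.00961 in controls, and TNF-alpha libraries 0.0694% ± 0.0199. The mRNA share was 0.472% ± 0.0151 with IL-1beta, 0.521% ± 0.0158 with TNF-alpha and 0.341% ± 0.0388 in controls. With TNF-alpha rRNA thus made up 9.84% to 15.2% of mitochondrial counts, below all 3 controls (15.5% to 22.5%), while IL-1beta (17.3% to 22.04%) overlapped them. At 24 h this part was below all controls (16.9% to 19.1%) with IL-1beta (11.1% to 16.2%) and TNF-alpha (13.5% to 16.4%). At 12 h it was below them (13.9% to 21.8%) with TNF-alpha (10.1% to 12.8%) and overlapped with IL-1beta. At 4 h TNF-alpha was above the controls (10.8% to 13.3% against 9.09% to 10.7%), and IL-1beta overlapped them. The rRNA values are what the depletion kit left, so rRNA level and depletion cannot be told apart.

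**Figure D2:**
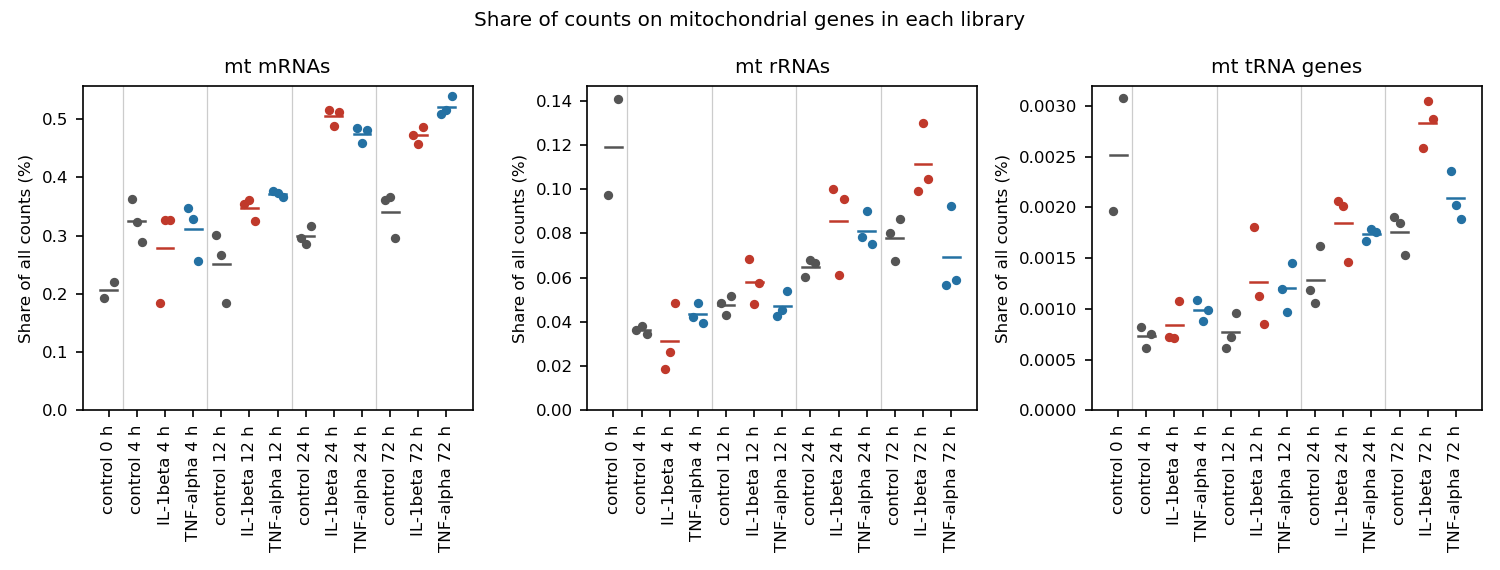
Share of all counts (%) on mitochondrial mRNAs, rRNAs and tRNA genes in each of 38 libraries, by group (points are libraries, lines group means; grey control, red IL-1beta, blue TNF-alpha). The mRNA share is above control with both cytokines from 12 h on, and the rRNA share has its highest mean at control 0 h (0.119%).

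Single genes were tested with edgeR in 1 fit over 18857 genes, called at a Benjamini-Hochberg adjusted p under 0.05. In the 8 comparisons of a cytokine with the control of its time, no member was called lower. With IL-1beta at 4 h none of the 17 tested members was called, against 15.5% of all tested genes called higher and 17.2% lower. None had an unadjusted p under 0.05, and DESeq2 called none either. The IL-1beta libraries of 4 h spread widely (mt-Co1 at 1562 to 2775 CPM), so a change there could be missed. At 12 h, 3 members were higher, where 14.5% of all tested genes were called higher and 15.0% lower. At 24 h it was 6 members (17.0% and 15.6% of all tested genes) and at 72 h 10 (19.3% and 19.7%). TNF-alpha at 4 h raised 2 members, where 10.9% of all tested genes were higher and 10.6% lower. It raised 4 members after 12 h (14.6% and 13.8%) and 5 after 24 h (13.2% and 11.9%). After 72 h it raised 2 (17.8% and 18.3%). The median log2 fold change of the 17 was 0.04, 0.38, 0.42 and 0.49 at the 4 times with IL-1beta, and 0.28, 0.00, 0.52 and 0.16 with TNF-alpha. Over all tested genes these medians lay between -0.03 and 0.00. Both cytokines were set against the same controls at each time.

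**Figure D3:**
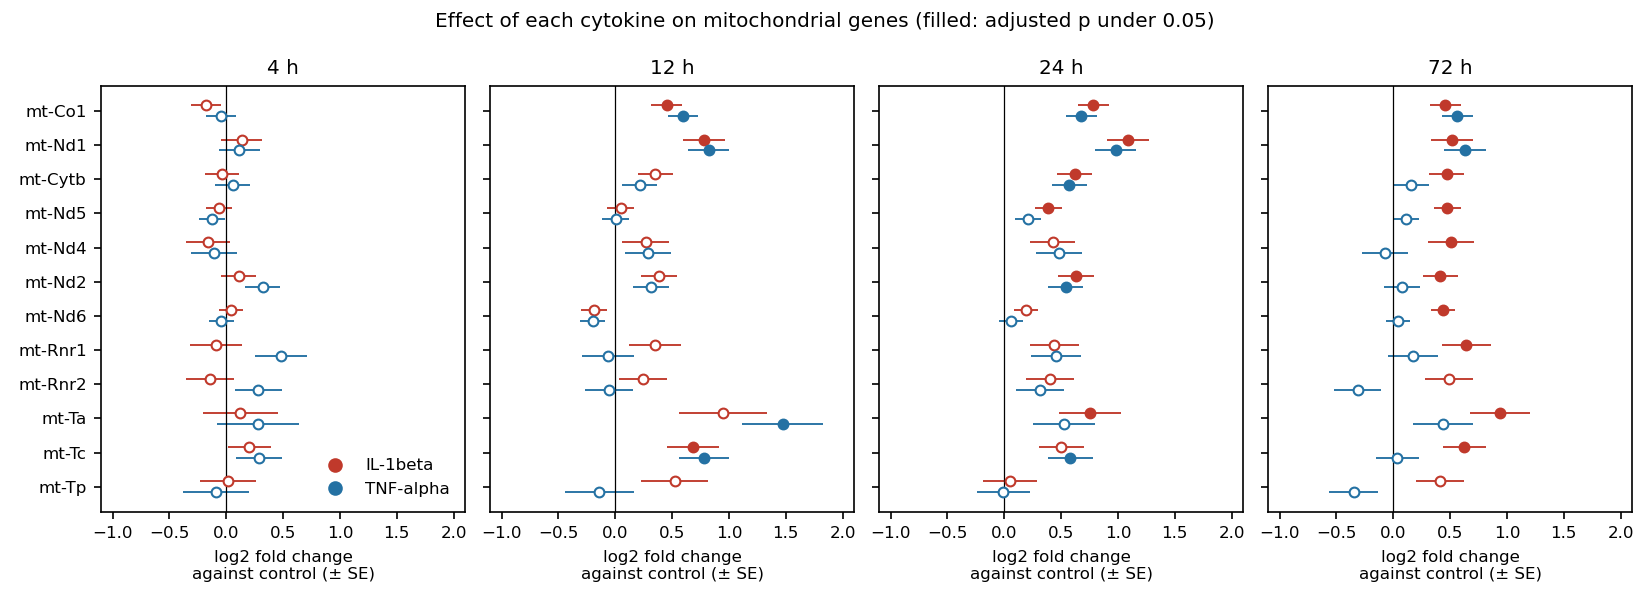
Log2 fold change against the control of the same time (± SE, edgeR) of 7 mRNAs, 2 rRNAs and 3 tRNA genes at 4, 12, 24 and 72 h, with IL-1beta in red and TNF-alpha in blue. Filled points have an adjusted p under 0.05; at 72 h all 7 mRNAs are filled with IL-1beta and mt-Co1 and mt-Nd1 with TNF-alpha.

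Markers of several cell types moved at the same times. The summed level of the cartilage markers in IL-1beta libraries was 29848 to 33217 CPM at 24 h and 16774 to 18098 at 72 h, against 72921 to 78775 and 79240 to 104804 in the controls. In TNF-alpha libraries it was 47513 to 72718 CPM and 36239 to 42945. All 8 were called lower at 72 h with both cytokines, against 19.7% of all tested genes with IL-1beta and 18.3% with TNF-alpha. At 12 h the controls summed to 110765 to 131717 CPM, the IL-1beta libraries to 69442 to 101946 and the TNF-alpha libraries to 70359 to 100598.

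Fibroblast markers (7 listed) summed to 10277 to 10748 CPM with TNF-alpha at 72 h and 25874 to 27369 with IL-1beta. Their 72 h controls summed to 20487 to 25405. With TNF-alpha 3 were called lower and 1 higher, against 18.3% and 17.8% of all tested genes. With IL-1beta 1 was called lower and 4 higher, against 19.7% and 19.3%. At 24 h these markers summed to 12946 to 14674 CPM with TNF-alpha and 21179 to 22965 with IL-1beta, against 23446 to 26705. For adipocyte markers (5 listed) the sum was mostly 1 gene, Fabp4 (mean 372 CPM over all libraries). These markers summed to 543 to 609 CPM with IL-1beta at 24 h against 267 to 397. At 72 h they summed to 680 to 710 against 285 to 387, and 3 were called higher (19.3% of all tested genes). With TNF-alpha their sums overlapped the controls at both times (187 to 276 and 221 to 321). Of the 5, 4 were called lower at each, against 11.9% and 18.3% of all tested genes. Neural markers (6 listed) were lower in sum than all controls with IL-1beta (46.0 to 50.8 against 98.9 to 112 CPM at 24 h, 42.3 to 48.0 against 113 to 125 at 72 h) and TNF-alpha (89.3 to 90.7 and 59.0 to 77.2). Macrophage and leukocyte markers (4 of 7 tested) were at 44.2 to 51.2 CPM with IL-1beta at 24 h against 22.4 to 33.6, and the TNF-alpha libraries of 72 h at 48.6 to 70.0 against 26.2 to 29.1. Their other sums there were 32.1 to 46.6 CPM (TNF-alpha at 24 h) and 30.9 to 37.4 (IL-1beta at 72 h). At 12 h fibroblast markers were below all controls (28741 to 35010 CPM) in the IL-1beta (23640 to 25592.5) and TNF-alpha libraries (17995 to 28151), and adipocyte markers were above them with IL-1beta (342 to 517 against 253 to 279). No listed marker was at 0 in all libraries. The part of these changes in the mitochondrial results was not tested.

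mt-Co1 rose with both cytokines at 12, 24 and 72 h. At 24 h the controls held 2146, 2093 and 2383 CPM, the IL-1beta libraries 3827, 3712 and 3852 and the TNF-alpha libraries 3571, 3442 and 3587. No treated library came near a control. The log2 fold change was 0.78 ± 0.14 (SE, adjusted p = 1.7e-05) with IL-1beta and 0.68 ± 0.13 (adjusted p = 0.00020) with TNF-alpha. At 12 h the controls held 2269, 2049 and 1484 CPM against 2592, 2753 and 2590 with IL-1beta (0.45 ± 0.13) and 2980, 2916 and 2869 with TNF-alpha (0.59 ± 0.13). At 72 h they held 2651, 2755 and 2353 CPM against 3651, 3362 and 3652 (0.46 ± 0.13) and 3756, 3786 and 3926 (0.56 ± 0.13). The groups did not overlap at either time. At 4 h they did: controls held 2955, 2597 and 2241 CPM, IL-1beta libraries 1562, 2775 and 2558 and TNF-alpha libraries 2810, 2654 and 2080. Without control 12 h replicate c the IL-1beta change at 12 h fell to 0.30 (adjusted p = 0.12), and without control 72 h replicate c that at 72 h was 0.37 (adjusted p = 0.057).

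Of the complex I genes mt-Nd1 moved most like mt-Co1 and by more. At 24 h its controls held 203, 186 and 202 CPM, against 443, 397 and 415 with IL-1beta (1.09 ± 0.18, adjusted p = 1.2e-05) and 377, 410 and 377 with TNF-alpha (0.98 ± 0.18, adjusted p = 8.9e-05). These were the largest called changes of any mitochondrial mRNA under a cytokine. It was also higher at 12 h (0.78 ± 0.18 and 0.82 ± 0.18) and at 72 h (0.52 ± 0.18 and 0.63 ± 0.18), with the libraries of the groups apart. At 72 h both calls were lost without control 72 h replicate c, at 0.40 (adjusted p = 0.14) with IL-1beta and 0.51 (adjusted p = 0.058) with TNF-alpha. The IL-1beta call at 72 h was also lost without control 72 h replicate a (0.51, adjusted p = 0.055) and IL-1beta 72 h replicate c (0.50, adjusted p = 0.056).

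mt-Nd2 and mt-Cytb shared a pattern: both rose with either cytokine at 24 h, and at 72 h with IL-1beta alone passing the test. mt-Nd2 encodes a membrane-arm subunit of complex I and mt-Cytb the cytochrome b of complex III. At 24 h mt-Nd2 held 49.8, 46.7 and 49.3 CPM in controls, against 85.0, 67.2 and 73.8 with IL-1beta (0.63 ± 0.16, adjusted p = 0.0016) and 68.2, 76.2 and 67.6 with TNF-alpha (0.54 ± 0.16, adjusted p = 0.0087). mt-Cytb held 139, 144 and 138 CPM against 233, 198 and 216 (0.62 ± 0.15, adjusted p = 0.0018) and 198, 224 and 203 (0.57 ± 0.15, adjusted p = 0.0052). For both genes all treated libraries at 24 h were above all controls. At 72 h with IL-1beta mt-Nd2 was higher by 0.41 ± 0.16 and mt-Cytb by 0.47 ± 0.15. The mt-Nd2 call was lost in 4 of its 6 fits that left out 1 library, those without control 72 h replicates a and c or IL-1beta 72 h replicates a and b (0.31 to 0.43, adjusted p up to 0.17). The mt-Cytb call was lost without control 72 h replicate c (0.33, adjusted p = 0.14) or IL-1beta 72 h replicate c (0.43, adjusted p = 0.051). With TNF-alpha at 72 h the values were 0.08 ± 0.15 for mt-Nd2 (adjusted p = 0.75) and 0.16 ± 0.15 for mt-Cytb (adjusted p = 0.46).

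mt-Nd4 and mt-Nd5, the last large complex I genes on the heavy strand, passed the test with IL-1beta only in late groups. mt-Nd5 held 151, 152 and 166 CPM in controls at 24 h and 227, 180 and 206 with IL-1beta (0.39 ± 0.12, adjusted p = 0.0099), a call lost without IL-1beta 24 h replicate a (0.31, adjusted p = 0.075). At 72 h it held 197, 193 and 166 CPM in controls, 247, 253 and 271 with IL-1beta (0.47 ± 0.12, adjusted p = 0.0013) and 195, 204 and 201 with TNF-alpha (0.11 ± 0.12, adjusted p = 0.50). mt-Nd4 at 72 h held 71.1, 67.0 and 54.6 CPM in controls, 96.6, 85.3 and 92.9 with IL-1beta (0.51 ± 0.20, adjusted p = 0.041) and 62.8, 61.8 and 58.7 with TNF-alpha (-0.07 ± 0.20, adjusted p = 0.82). For both genes the IL-1beta libraries stood above all others of that time. The mt-Nd4 call was lost in each fit that left out 1 library except that without control 72 h replicate a (0.39 to 0.56, adjusted p up to 0.20).

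mt-Nd6, the complex I subunit read from the light strand and the one with the lowest mean CPM of the 7 tested mRNAs (42.1, not scaled to length), passed the test with IL-1beta at 72 h only among the 8 comparisons. There it held 56.1, 58.9 and 67.7 CPM, against 48.2, 45.5 and 41.4 in controls and 45.0, 46.2 and 48.2 with TNF-alpha. The IL-1beta libraries were the highest 3, and TNF-alpha overlapped the controls. The log2 fold change was 0.44 ± 0.11 (adjusted p = 0.0011) with IL-1beta and 0.04 ± 0.11 (adjusted p = 0.79) with TNF-alpha. At 12 h, when mt-Co1 and mt-Nd1 were higher, mt-Nd6 held 44.7, 41.0 and 43.0 CPM in controls, 41.8, 34.9 and 36.6 with IL-1beta (-0.19 ± 0.11, adjusted p = 0.23) and 36.5, 42.3 and 33.6 with TNF-alpha (-0.20 ± 0.11, adjusted p = 0.19). At 24 h it held 40.8, 37.1 and 40.6 CPM, 49.5, 42.8 and 43.2 (0.19 ± 0.11, adjusted p = 0.18), and 37.5, 43.0 and 42.8 (0.06 ± 0.11, adjusted p = 0.75). At 4 h controls held 41.3, 35.7 and 42.6 CPM, IL-1beta libraries 36.3, 40.0 and 47.4 and TNF-alpha libraries 37.6, 41.6 and 36.98, and these overlapped.

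**Figure D4:**
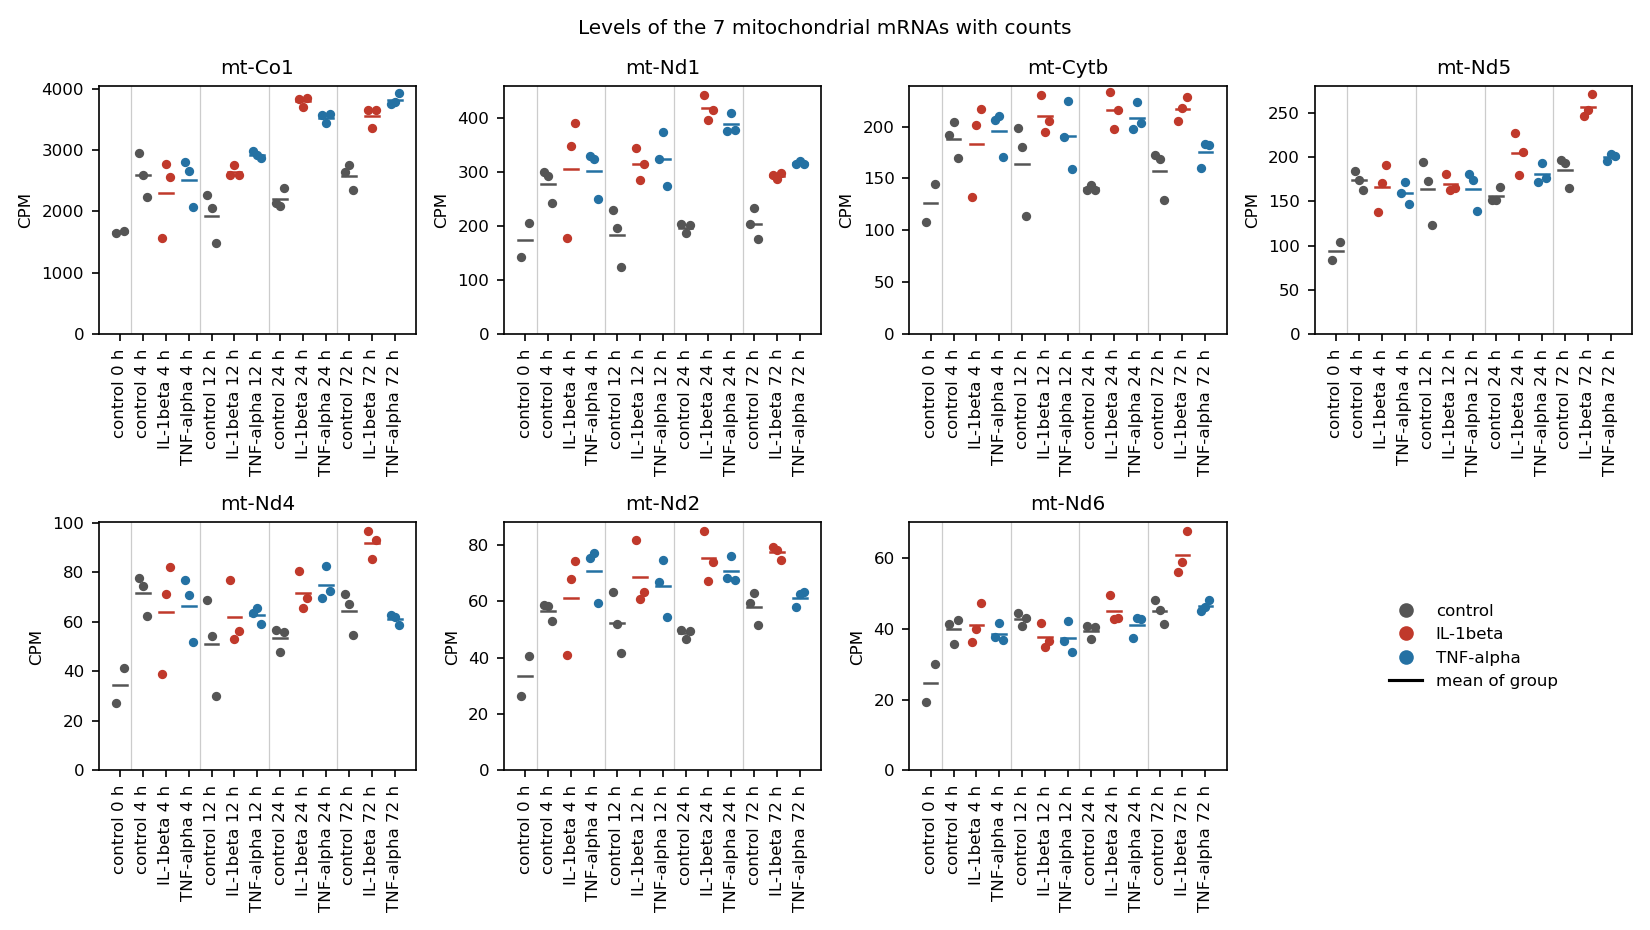
CPM of the 7 mitochondrial mRNAs with counts in each of 38 libraries, by group (points are libraries, lines group means; axes start at 0). mt-Co1 and mt-Nd1 are above control with both cytokines from 12 h on, and mt-Nd6 stands above control at 72 h with IL-1beta, at 56.1 to 67.7 CPM.

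The rRNAs, whose counts are what the depletion kit left, rose less clearly. mt-Rnr1, the 12S rRNA of the small mitoribosomal subunit, was called higher in 1 of the 8 comparisons, IL-1beta at 72 h. There it held 60.0, 80.6 and 71.0 CPM against 46.0, 41.2 and 48.9 in controls (0.64 ± 0.22, adjusted p = 0.017). The call was lost without control 72 h replicate b (0.57, adjusted p = 0.073) or IL-1beta 72 h replicate b (0.53, adjusted p = 0.085). With TNF-alpha mt-Rnr1 held 57.3, 56.4 and 39.4 CPM at 72 h and overlapped the controls. At 24 h its controls held 35.4, 39.9 and 38.8 CPM, IL-1beta libraries 60.7, 40.0 and 54.1 (0.44 ± 0.22, adjusted p = 0.12) and TNF-alpha libraries 48.8, 59.2 and 48.2 (0.45 ± 0.22, adjusted p = 0.13). At 12 h its controls held 29.9, 31.6 and 38.5 CPM, IL-1beta libraries 50.2, 34.6 and 42.9 and TNF-alpha libraries 24.9, 29.5 and 41.3. At 4 h they held 28.6, 23.1 and 20.8, 15.6, 16.9 and 39.4, and 33.3, 40.3 and 28.1 CPM in the same order, and the groups overlapped at both times.

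mt-Rnr2, the 16S rRNA, passed in none of the 8 comparisons of a cytokine with its control. At 72 h its controls held 712, 611 and 818 CPM, the IL-1beta libraries 914, 1155 and 933 (0.49 ± 0.21, adjusted p = 0.064) and the TNF-alpha libraries 456, 780 and 486 (-0.31 ± 0.21, adjusted p = 0.26). The IL-1beta libraries were above all controls, and the TNF-alpha libraries ran across them. At 24 h the values were 533, 601 and 602 CPM in controls, 897, 546 and 855 with IL-1beta and 681, 818 and 662 with TNF-alpha. At 12 h they were 466, 411 and 511, 639, 437 and 566, and 410, 439 and 489.5 CPM. At 4 h they were 353, 381 and 336, 201, 280.5 and 492, and 417, 481 and 404 CPM. The IL-1beta libraries spread more widely than their controls at 4, 12 and 24 h.

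The tRNA genes with enough counts to describe were mt-Ta (alanine), mt-Tc (cysteine) and mt-Tp (proline), all at low levels. mt-Ta was called higher with IL-1beta at 24 h (0.75 ± 0.27) and 72 h (0.94 ± 0.26) and with TNF-alpha at 12 h (1.47 ± 0.35). At 72 h it held 10.4, 11.8 and 11.8 CPM with IL-1beta against 6.45, 6.06 and 5.19 in controls. The call at 24 h, where the groups overlapped, was lost without control 24 h replicates a or b or IL-1beta 24 h replicates a or b (0.55 to 0.71, adjusted p up to 0.18). mt-Tc was higher with IL-1beta at 12 h (0.68 ± 0.23) and 72 h (0.63 ± 0.19) and with TNF-alpha at 12 h (0.78 ± 0.22) and 24 h (0.58 ± 0.20). The IL-1beta call at 12 h fell to 0.32 (adjusted p = 0.34) without IL-1beta 12 h replicate a, and was also lost without control 12 h replicate a or b (0.64 and 0.68, adjusted p = 0.073 and 0.051). The TNF-alpha call at 24 h was lost without control 24 h replicates a or b or TNF-alpha 24 h replicates a or b (0.46 to 0.59, adjusted p up to 0.15). mt-Tp passed in none of the 8 comparisons, its values lying from -0.35 to 0.52.

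Other short structured RNAs, which are nuclear, varied among the same libraries. Rpph1, the RNA of nuclear RNase P, held 3360 to 4860 CPM with IL-1beta at 72 h against 2914 to 3423 in controls. Rn7sk, a regulator of RNA polymerase II, held 1978 to 2730 against 1364 to 1552, and Rmrp 304 to 529 against 189 to 262, of which Rmrp was called higher (0.97 ± 0.25, adjusted p = 0.0017). The part of such RNAs in the tRNA results was not tested.

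The largest rise of any member was that of 2 tRNA genes with TNF-alpha at 4 h, and it rests on few counts. mt-Tm (methionine) had 12, 5 and 8 counts in the TNF-alpha libraries and 3, 4 and 2 in the controls, which were sequenced more deeply (29215135 to 50491521 counts against 13631748 to 15427084). Its log2 fold change was 2.79 ± 0.64 (adjusted p = 0.0014). mt-Ti (isoleucine) had 7, 6 and 4 counts against 4, 2 and 1 (2.59 ± 0.65, adjusted p = 0.0035). These genes flank the mt-Tq gene between mt-Nd1 and mt-Nd2, whose mRNAs did not pass the test there (0.12 ± 0.18 and 0.32 ± 0.16). Against the 12 h controls, which are on the same side of the Rmrp parting as TNF-alpha at 4 h, mt-Tm was at 1.02 ± 0.58 (adjusted p = 0.21) and mt-Ti at -0.32 ± 0.51 (adjusted p = 0.70). The parting runs through this comparison, and its part in the result was not tested. The lowest value of any member was that of mt-Ts2 (serine) with TNF-alpha at 12 h, -1.002 ± 0.80 (adjusted p = 0.38), with 2 counts in each treated library and 6, 3 and 4 in controls.

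The cytokines were also set directly against each other. At 72 h 6 of the 17 members were higher with IL-1beta than with TNF-alpha and none lower, against 19.4% of all tested genes called higher and 20.4% lower. They were mt-Nd4 (0.58 ± 0.20, adjusted p = 0.018), mt-Nd5 (0.36 ± 0.12, adjusted p = 0.012), mt-Nd6 (0.39 ± 0.11, adjusted p = 0.0028), mt-Rnr2 (0.80 ± 0.21, adjusted p = 0.0022), mt-Tc (0.59 ± 0.18, adjusted p = 0.0087) and mt-Tp (0.76 ± 0.21, adjusted p = 0.0031). mt-Co1 and mt-Nd1 were at -0.10 ± 0.13 and -0.11 ± 0.18, and all 3 TNF-alpha libraries were above all IL-1beta libraries for both. The differences of mt-Nd2 (0.34 ± 0.15, adjusted p = 0.080), mt-Cytb (0.31 ± 0.15, adjusted p = 0.11), mt-Rnr1 (0.47 ± 0.21, adjusted p = 0.080) and mt-Ta (0.51 ± 0.25, adjusted p = 0.11) did not pass the test. Of the 6 calls, that of mt-Nd4 was lost without IL-1beta 72 h replicate a (0.54, adjusted p = 0.054) or TNF-alpha 72 h replicate c (0.55, adjusted p = 0.054). That of mt-Nd5 was lost without IL-1beta 72 h replicate c (0.32, adjusted p = 0.053) and that of mt-Tc without TNF-alpha 72 h replicate c (0.49, adjusted p = 0.056).

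At 4 h mt-Ti (-2.34 ± 0.66) and mt-Tm (-2.75 ± 0.66) were lower with IL-1beta than with TNF-alpha, where 6.66% of all tested genes were called lower and 5.71% higher. The Rmrp parting also runs between these groups, and mt-Ti lost its call without IL-1beta 4 h replicate b (-1.98, adjusted p = 0.14) or TNF-alpha 4 h replicate a (-2.21, adjusted p = 0.078). A fit on only the libraries compared called neither. At 12 h no member differed between the cytokines by edgeR (4.70% of all tested genes higher with IL-1beta, 5.88% lower), with 2 at an unadjusted p under 0.05. At 24 h none did either (9.31% and 10.8%), with 0 at an unadjusted p under 0.05. DESeq2 called none at both times.

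The change of a cytokine's effect with time was tested as the difference between effects. The IL-1beta effect was higher at 72 h than at 4 h for 3 members (15.7% of all tested genes higher, 15.0% lower): mt-Co1 by 0.64 ± 0.19 (adjusted p = 0.0096), mt-Nd5 by 0.54 ± 0.17 (adjusted p = 0.012) and mt-Nd6 by 0.40 ± 0.15 (adjusted p = 0.042). These calls were lost without IL-1beta 4 h replicate a, the library of the low mitochondrial share, at 0.38 (adjusted p = 0.069), 0.38 (adjusted p = 0.088) and 0.28 (adjusted p = 0.19). All 3 were lost without control 4 h replicate a as well (0.50, 0.46 and 0.33). mt-Nd5 was lost without control 72 h replicate c too (0.43, adjusted p = 0.070), and mt-Nd6 in 7 of its 12 fits that left out 1 library, those without control 4 h a or c, IL-1beta 4 h a or b, control 72 h b or c, or IL-1beta 72 h c (0.28 to 0.40). Against its effect at 12 h, IL-1beta at 72 h differed for mt-Nd6, by 0.62 ± 0.15 (adjusted p = 0.0020), where 14.1% of all tested genes were called in each direction. This call held without any 1 library. For TNF-alpha between 12 h and 72 h edgeR called no member (3.64% of all tested genes higher, 4.90% lower), with 2 at an unadjusted p under 0.05 and none called by DESeq2.

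Relative to mt-Co1 within a library, which needs no scaling between libraries, the other mRNAs did not keep pace equally. For every 100 counts of mt-Co1, mt-Nd5 had 7.05, 7.25 and 6.95 in the 24 h controls. It had 5.92, 4.85 and 5.35 with IL-1beta and 4.82, 5.61 and 4.91 with TNF-alpha, all below the controls. At 72 h mt-Nd5 had 7.41, 6.996 and 7.04 in controls and 6.76, 7.54 and 7.42 with IL-1beta, which overlapped, but 5.20, 5.38 and 5.12 with TNF-alpha. mt-Nd6 did the same: 1.70 to 1.90 in the 24 h controls, 1.12 to 1.29 (IL-1beta) and 1.05 to 1.25 (TNF-alpha), then at 72 h 1.65 to 1.82, 1.54 to 1.85 and 1.198 to 1.23. mt-Nd1 went the other way at 24 h, with 8.46 to 9.46 in controls, 10.7 to 11.6 (IL-1beta) and 10.5 to 11.9 (TNF-alpha), and overlapped at 72 h (7.47 to 8.50, 8.04 to 8.53 and 8.01 to 8.48). At 12 h mt-Nd5 was already below all controls (8.32 to 8.57) with IL-1beta (5.89 to 6.98) and TNF-alpha (4.84 to 6.05). So was mt-Nd6, at 1.97 to 2.90 in controls, 1.27 to 1.61 and 1.17 to 1.45. Both overlapped the controls at 4 h. mt-Nd1 was above all controls with both cytokines at 4 h (10.1 to 11.3, 11.4 to 15.3 and 11.7 to 12.2). At 12 h mt-Nd1 was above them with IL-1beta and overlapped with TNF-alpha. These ratios show unequal change and were not tested.

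**Figure D5:**
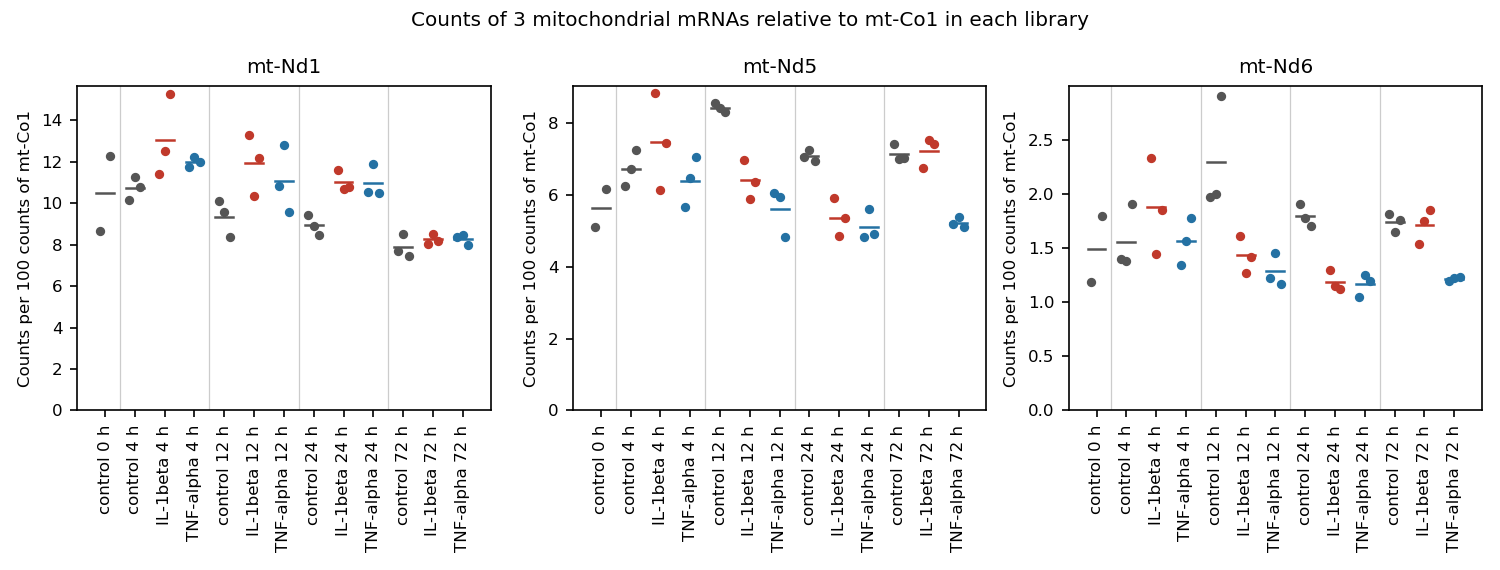
Counts of mt-Nd1, mt-Nd5 and mt-Nd6 for every 100 counts of mt-Co1 in each of 38 libraries, by group (points are libraries, lines group means; axes start at 0). At 72 h mt-Nd5 and mt-Nd6 overlap the controls with IL-1beta and lie below them with TNF-alpha, at 5.12 to 5.38 and 1.198 to 1.23.

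Without cytokine, the step from 0 h to 4 h of the time course had the most calls among the comparisons of controls that were tested. In it the mRNAs rose while both rRNAs and 2 of the 8 tested tRNA genes fell. From control 0 h to control 4 h all 7 tested mRNAs rose, by 0.58 ± 0.18 (mt-Cytb) to 1.07 ± 0.24 (mt-Nd4). mt-Rnr1, mt-Rnr2, mt-Ta and mt-Tc fell, the whole making 7 members higher and 4 lower against 10.2% of all tested genes in each direction. mt-Rnr2 held 986 and 1357 CPM at 0 h and 353, 381 and 336 at 4 h (-1.72 ± 0.23, adjusted p = 1.9e-06), and mt-Rnr1 49.9 and 70.2 against 28.6, 23.1 and 20.8 (-1.30 ± 0.24, adjusted p = 0.00017). mt-Ta held 9.27 and 14.7 CPM against 2.35, 1.42 and 1.91 (-2.61 ± 0.31, adjusted p = 2.1e-07). mt-Co1 held 1643 and 1677 CPM at 0 h against the 4 h levels above (0.65 ± 0.15, adjusted p = 0.0024), and mt-Nd6 19.5 and 30.1. rRNA made up 33.3% and 38.6% of mitochondrial counts at 0 h and 9.09% to 10.7% at 4 h, with no overlap. A change in rRNA level and a change in what the depletion kit left cannot be told apart here.

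Only 2 libraries stand for 0 h. Without control 0 h replicate a, the changes of mt-Cytb (0.39, adjusted p = 0.26), mt-Nd1 (0.44, adjusted p = 0.29), mt-Nd2 (0.48, adjusted p = 0.15) and mt-Nd4 (0.79, adjusted p = 0.071) were not called and mt-Nd6 fell to 0.41 (adjusted p = 0.047). mt-Nd1 also lost its call without control 4 h replicate a (0.63, adjusted p = 0.056) and mt-Cytb without control 4 h replicate b (0.53, adjusted p = 0.056). The 4 falls and the rises of mt-Co1 and mt-Nd5 (0.89 ± 0.14) held without any 1 library. Rn7sk held 1138 and 1789 CPM at 0 h and 584 to 992 at 4 h, and Rpph1 2128 and 2967 against 1229 to 1968, and their part in the rRNA and tRNA results was not tested. Fibroblast markers summed to 35169 to 38600 CPM at 0 h and 26328 to 28747 at 4 h, and macrophage and leukocyte markers to 16.5 to 20.3 and 25.4 to 28.4, and their part was not tested either.

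Of the 7 mRNAs only mt-Co1 was called between control 12 h and a later control. Control 12 h was not tested against control 4 h. There mean mt-Co1 was 2597 CPM at 4 h and 1934 at 12 h, and mean mt-Nd1 278 and 183. Mean mt-Nd4 was 71.5 and 51.1 CPM, and mean mt-Nd6 39.9 and 42.9. The libraries of 4 h and 12 h overlapped for mt-Co1, mt-Nd4 and mt-Nd6 (35.7 to 42.6 against 41.0 to 44.7 CPM). They did not overlap for mt-Nd1 (242 to 300 against 124 to 229 CPM). The Rmrp parting runs between these controls, and its part was not tested. From 12 h to 24 h edgeR called mt-Ta (1.55 ± 0.35) and mt-Tp (0.78 ± 0.27) higher and no member lower (10.2% and 11.5% of all tested genes), and the mt-Tp call was lost without control 12 h replicate a or b or control 24 h replicate c (0.59 to 0.74, adjusted p up to 0.19). From 12 h to 72 h 5 members were higher and none lower (18.7% and 18.3%). These were mt-Ta (1.86 ± 0.34), mt-Tp (1.53 ± 0.25), mt-Tc (0.79 ± 0.22), mt-Rnr2 (0.63 ± 0.21) and mt-Co1 (0.42 ± 0.13). mt-Ta held 0.955, 1.32 and 2.74 CPM at 12 h and 6.45, 6.06 and 5.19 at 72 h, with no overlap. The mt-Co1 call was lost without control 12 h replicate c (0.28, adjusted p = 0.13) or control 72 h replicate b (0.37, adjusted p = 0.057), and that of mt-Rnr2 without control 12 h replicate b (0.56, adjusted p = 0.075) or control 72 h replicate c (0.53, adjusted p = 0.082).

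The nuclear genes that copy, process and translate mitochondrial RNA were mostly not called. Of 66 such factors tested, 6 were higher and 3 lower with IL-1beta at 12 h (9.09% and 4.55%, against 14.5% and 15.0% of all tested genes), and 12 and 3 with TNF-alpha (18.2% and 4.55%, against 14.6% and 13.8%). At 24 h it was 12 and 1 with IL-1beta (18.2% and 1.52%, against 17.0% and 15.6%) and 7 and 2 with TNF-alpha (10.6% and 3.03%, against 13.2% and 11.9%). At 72 h it was 8 and 5 with IL-1beta (12.1% and 7.58%, against 19.3% and 19.7%) and 10 and 6 with TNF-alpha (15.2% and 9.09%, against 17.8% and 18.3%). These are shares near or under those of all tested genes, except that of genes called higher with TNF-alpha at 12 h (18.2% against 14.6%). The factors named next were all higher. Those called lower, 5 with IL-1beta and 6 with TNF-alpha at 72 h, are not named. Values with both cytokines at both times are not given for every factor. Lrpprc, whose protein binds and stabilises heavy-strand mRNAs, held 71.8 ± 1.55 CPM (SD, n = 3) in the 24 h controls, 89.7 ± 1.33 with IL-1beta (0.32 ± 0.05 SE, adjusted p = 3.5e-06) and 92.0 ± 1.46 with TNF-alpha (0.36 ± 0.05, adjusted p = 9.4e-07). At 72 h it was higher with TNF-alpha by 0.52 ± 0.05 (adjusted p = 1.9e-10). Polrmt, the polymerase, was higher with IL-1beta at 24 h (0.30 ± 0.09, adjusted p = 0.012) and 72 h (0.41 ± 0.09, adjusted p = 0.00051). Fastkd2, which binds mt-Rnr2 and mt-Nd6 RNA, was higher at 24 h with IL-1beta (0.40 ± 0.09) and TNF-alpha (0.35 ± 0.09). Twnk, the mitochondrial DNA helicase, was higher with IL-1beta at 72 h (0.55 ± 0.09, adjusted p = 4.1e-06). Of the mtDNA transcription list of 11, the median log2 fold change was 0.06 with IL-1beta and -0.04 with TNF-alpha at 24 h.

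Of the nuclear partners of the mitochondrial proteins, 48 subunits of complexes I to V were tested. At 12 h with IL-1beta 0 were higher (against 14.5% of all tested genes) and 1 lower (2.08%, against 15.0%). With TNF-alpha at 12 h 3 were higher (6.25%, against 14.6%) and 1 lower (2.08%, against 13.8%). With IL-1beta at 24 h 12 were higher (25.0%, against 17.0% of all tested genes) and 1 lower (2.08%, against 15.6%). With TNF-alpha at 24 h it was 6 (12.5%, against 13.2%) and 1 (against 11.9%). At 72 h it was 9 higher (18.8%) and 1 lower with each, against 19.3% and 19.7% of all tested genes with IL-1beta and 17.8% and 18.3% with TNF-alpha. Ndufv1, a complex I subunit that takes up electrons from NADH, was higher at 24 h by 0.34 ± 0.07 with IL-1beta and 0.22 ± 0.07 with TNF-alpha, and Uqcrc1 of complex III by 0.28 ± 0.05 and 0.17 ± 0.05. The 1 lower gene at 24 h and at 72 h was Cox4i2, an alternative subunit of complex IV. At 72 h Cox4i2 held 58.6 ± 3.92 CPM in controls, 34.9 ± 2.48 with IL-1beta (-0.75 ± 0.16, adjusted p = 0.00019) and 15.1 ± 2.66 with TNF-alpha (-1.97 ± 0.16, adjusted p = 6.0e-12).

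Regulators of mitochondrial number and removal included larger changes. Ppargc1a, the coactivator PGC-1alpha, held 2.20 ± 0.252 CPM in the 72 h controls and 6.73 ± 1.19 with TNF-alpha (1.62 ± 0.27, adjusted p = 1.1e-05). It was also higher with TNF-alpha at 24 h (1.72 ± 0.30, adjusted p = 2.7e-05). Bnip3, a receptor that marks mitochondria for removal by mitophagy, held 44.9 ± 4.09 CPM in the 72 h controls, 68.0 ± 3.38 with IL-1beta (0.60 ± 0.10, adjusted p = 3.3e-06) and 10.2 ± 0.709 with TNF-alpha (-2.14 ± 0.11, adjusted p = 6.1e-18). At 24 h it was lower with both, by -1.29 ± 0.10 and -2.23 ± 0.11. Pink1, a kinase that starts mitophagy, was lower at 72 h with IL-1beta (-0.31 ± 0.06) and TNF-alpha (-0.47 ± 0.06). In each of these cases the treated libraries lay wholly on 1 side of their controls. The cytokines were not set against each other for these genes.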

How the data were processed

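The members and gene lists were chosen with earlier results of these data known, so no list here is independent evidence. The deposited mRNA table gives raw counts per gene. Trimmomatic, cutadapt, STAR and featureCounts, and the build mm10, are named in the submitters' processing notes without version or role. For the annotation, the strand setting and the treatment of reads matching several places, nothing is given in the sources used here. Gene lengths in the table equalled those of RefSeq GRCm38.p6 for all 37 members, and positions are from RefSeq. At its end the table has 2199 nameless lines, which were left out. The column of control 0 h replicate b was left out after its values were seen. No libraries of a group were copies (lowest chi-square per degree of freedom 3.39).

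Differences between groups were tested on the counts in R 4.3.3 with edgeR 4.0.16 and limma 3.58.1 (quasi-likelihood F test, TMM scaling, filterByExpr filter), in 1 fit of 13 groups and 38 libraries without covariates. The fit covered 18857 genes, which held 99.9% of the counts, and calls were made at a Benjamini-Hochberg adjusted p under 0.05. TMM factors were 0.864 to 1.12 and the common BCV (biological coefficient of variation) 8.26%. A ± without a label is the standard error of a log2 fold change. Shares of counts were not tested. The script was tested on simulated data. Named were all mRNAs and rRNAs, tRNA genes with a mean of at least 20 counts per library, the members of largest change in each direction, and at most 3 members of smallest p with a mean of at least 1 CPM from each nuclear list, of which some are given. The 39 miRNA libraries were not used. Alternatives were DESeq2 1.42.0, its size factors, library totals, no filter, the replicate letter as a block, only the libraries compared, all 39 libraries, each library left out, and other denominators of the share. Figures were drawn with Python 3.11.15 and matplotlib 3.10.9.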

Additional observations from a re-analysis of the deposited data

Results flagged for a closer look

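The IL-1beta effect differed between times by the test of the difference itself (edgeR) for 3 mRNAs between 4 h and 72 h: mt-Co1 by 0.64, mt-Nd5 by 0.54 and mt-Nd6 by 0.40 on the log2 scale. Between 12 h and 72 h it differed for mt-Nd6, by 0.62. The first 3 lost their calls without IL-1beta 4 h replicate a or control 4 h replicate a, and the last kept its call without any 1 library. Groups of 2 or 3 libraries are too small for a test of single outlying libraries.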

How the results depend on the processing

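Counts of called members are given for IL-1beta at 4, 12, 24 and 72 h and then TNF-alpha, each against its control. In the main fit they were 0, 3, 6, 10, 2, 4, 5 and 2, out of the 17 that passed the filter. Without the filter every member with any count was tested, and with other sets of libraries the filter was run anew. Those counts are therefore not always out of 17. The share of all tested genes called is not given for the alternative settings. The fit with all 39 libraries takes in the left-out column, whose values cannot be tied to the genes of their rows. Its counts therefore cannot show how firm the calls are. Without the low-count filter they were 1, 9, 10, 11, 6, 7, 10 and 4, with all 39 libraries 0, 0, 2, 3, 1, 1, 1 and 0, on only the libraries compared 0, 4, 9, 12, 3, 4, 9 and 3, and with DESeq2 0, 5, 6, 9, 2, 4, 5 and 2. DESeq2 size factors, library totals and the replicate block gave the main counts in all 8. Leaving out 1 library gave 0 to 2, 2 to 4, 4 to 7, 5 to 10, 2 to 2, 4 to 5, 4 to 5 and 1 to 3. Against the 12 h controls TNF-alpha at 4 h gave 4, and mt-Ti turned to -0.32. For IL-1beta against TNF-alpha the counts were 2, 0, 0 and 6. Without the filter they were 4, 2, 0 and 11, with all 39 libraries 1, 0, 0 and 1, on only the libraries compared 0, 0, 0 and 10, with DESeq2 1, 0, 0 and 6, and with library totals 4 in place of 6 at 72 h. Leaving out 1 library gave 1 to 4 at 4 h and 5 to 6 at 72 h, and 0 at 12 h and 24 h. For controls at 4 h against 0 h, 24 h against 12 h and 72 h against 12 h, the counts 11, 2 and 5 became 11, 4 and 7 without the filter, 11, 1 and 2 with all 39 libraries, and 7 to 11, 1 to 3 and 4 to 7 without 1 library. For the differences of effects (IL-1beta at 72 h against 4 h and against 12 h, TNF-alpha at 72 h against 12 h) the counts 3, 1 and 0 became 9, 2 and 2 without the filter, 0, 1 and 0 with all 39 libraries, 6 for the first with library totals, 2 for the first with DESeq2 or its size factors, and 0 to 7, 1 to 2 and 0 to 1 without 1 library. The cause of these shifts was not tested.

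With the replicate block no count of calls changed in any of the 18 comparisons (IL-1beta at 72 h kept 10). Libraries of the same letter did not deviate together (mean correlation -0.0014, range -0.13 to 0.13, against 0.00072 between other letters), and 6 of 36 lay closest to their own letter. Of the 32 called gene values in the cytokine comparisons, 161 of 192 fits without 1 library kept the call and none reversed. All 32 were kept with the DESeq2 size factors, library totals, no filter and the replicate block. With all 39 libraries, the left-out column included, 8 were kept. The share ratios moved by less than their spread, except that of TNF-alpha at 72 h, 1.41, which was 1.53 over mRNAs alone. Leaving out 1 library gave 0.771 to 1.01, 1.23 to 1.48, 1.59 to 1.68 and 1.34 to 1.43 with IL-1beta and 0.934 to 1.06, 1.27 to 1.53, 1.503 to 1.56 and 1.35 to 1.45 with TNF-alpha. Depth limits the tRNA genes: 5 of the 8 tested had fewer than 300 counts over 38 libraries.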
